A study of Mus musculus with 28 samples.

Results

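The genes described here are 10 HOX genes, 9 of the HoxA cluster (Hoxa2, Hoxa3, Hoxa4, Hoxa5, Hoxa7, Hoxa9, Hoxa10, Hoxa11 and Hoxa13) and Hoxc5 of the HoxC cluster. They were chosen by symbol: a probe set belonged to them when the platform annotation named that gene and no other. This gave 13 probe sets, 12 of them for HoxA genes, out of 20380 probe sets that named 1 gene and 12393 genes in all.

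Transcript levels of cells sorted from mouse bone marrow were read on 28 Affymetrix arrays, each from about 10000 cells and about 50 ng of total RNA. The design text divides the series into 2 experiments, amplified on separate days, whose levels cannot be set against each other. In the first, granulocyte-macrophage progenitors (GMP) expressed MLL-AF9 (3 arrays) or, as the control, green fluorescent protein, GFP (3 arrays). MLL-AF9 is the leukaemia fusion of the histone methyltransferase KMT2A (MLL) with MLLT3 (AF9). In the second, leukaemic cells called L-GMP (lineage negative, Sca negative, Kit positive, Fc receptor positive and CD34 positive, 6 arrays) were set beside populations of normal marrow. These were a stem cell enriched fraction, HSC (lineage negative, Sca positive and Kit positive, 5 arrays), and 3 Sca negative, Kit positive progenitors. The common myeloid progenitors, CMP (4 arrays), are labelled Fc receptor positive and CD34 low, the GMP (4 arrays) Fc receptor positive and CD34 high, and the megakaryocyte-erythroid progenitors, MEP (3 arrays), negative for both markers. The labels do not name the oncogene of the L-GMP, how MLL-AF9 or GFP was introduced, the mouse strain or the age of the animals, nor whether replicates came from separate animals. The p-values therefore rest on a spread between arrays that may be technical, and the number of arrays per group limits their precision.

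HOX genes encode homeodomain transcription factors and lie in clusters in which the order along the chromosome follows the order of use along the body axis. In blood formation, HoxA genes are active in stem cells and early progenitors and are shut down as myeloid cells mature. MLL maintains HoxA transcription through histone methylation, MLL fusions are known to sustain this activity in leukaemia, and PBX and MEIS proteins bind DNA together with HOX proteins. RefSeq (assembly GRCm38.p6) places the cluster on chromosome 6, and Hoxc5 lies on chromosome 15.

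Hoxa5, Hoxa9, Hoxa10, Hoxc5 and 1 probe set of Hoxa3 were called higher in the leukaemic cells than in CMP, GMP and MEP. Of these genes, the promoters of Hoxa5, Hoxa9 and Hoxa10 are shown. Each holds 250 bases before and 50 bases after an annotated start, from RefSeq (GRCm38.p6), written 5′ to 3′ along the minus strand on which the genes lie, with every CG dinucleotide in capitals. Hoxa10 has 2 annotated starts.
Hoxa5, chr6:52204538-52204837: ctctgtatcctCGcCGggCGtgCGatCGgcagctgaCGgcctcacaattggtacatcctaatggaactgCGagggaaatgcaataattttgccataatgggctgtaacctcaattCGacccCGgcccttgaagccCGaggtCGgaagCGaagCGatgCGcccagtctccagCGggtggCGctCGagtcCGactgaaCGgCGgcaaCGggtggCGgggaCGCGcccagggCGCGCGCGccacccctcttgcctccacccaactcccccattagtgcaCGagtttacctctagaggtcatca
Hoxa9, chr6:52227321-52227620: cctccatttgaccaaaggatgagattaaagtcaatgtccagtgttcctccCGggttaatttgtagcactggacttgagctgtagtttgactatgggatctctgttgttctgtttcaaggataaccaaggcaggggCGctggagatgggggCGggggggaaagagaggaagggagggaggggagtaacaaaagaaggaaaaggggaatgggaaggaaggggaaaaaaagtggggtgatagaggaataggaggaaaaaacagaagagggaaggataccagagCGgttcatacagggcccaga
Hoxa10, first start, chr6:52240805-52241104: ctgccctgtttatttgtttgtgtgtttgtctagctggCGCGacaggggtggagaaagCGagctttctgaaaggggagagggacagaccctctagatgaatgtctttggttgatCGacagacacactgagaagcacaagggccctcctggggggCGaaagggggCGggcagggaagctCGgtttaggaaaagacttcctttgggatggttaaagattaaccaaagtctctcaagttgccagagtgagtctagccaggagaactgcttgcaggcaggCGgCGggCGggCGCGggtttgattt
Hoxa10, second start, chr6:52234890-52235189: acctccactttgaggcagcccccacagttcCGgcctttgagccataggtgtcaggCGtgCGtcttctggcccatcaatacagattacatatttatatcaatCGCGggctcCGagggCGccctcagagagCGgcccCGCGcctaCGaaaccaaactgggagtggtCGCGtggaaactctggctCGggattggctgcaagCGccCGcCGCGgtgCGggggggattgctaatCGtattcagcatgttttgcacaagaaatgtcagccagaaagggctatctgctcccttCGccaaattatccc
The table held promoters for 8 of the 10 genes, 9 promoters in all. CG dinucleotides numbered 29 in the Hoxa5 promoter, 12 and 21 in the first and the second Hoxa10 promoter, and 4 in the Hoxa9 promoter. The median over all 32851 promoters of the table was 7. At least as many as in Hoxa5 were found in 12.9% of all promoters, and at least as many as in Hoxa9 in 68.6%. The Hoxa13 promoter, of a gene whose probe set was above the array floor on 1 sorted array, held 45, a number reached by 1.93% of promoters. A search of both strands for TATAAA found it in the second Hoxa10 promoter alone among the 9, against 13.6% of all promoters. The PBX-HOX type letters TGATTNAT (3.22% of all promoters) were present only in the Hoxa2 promoter. The MEIS type letters TGACAG (19.2% of all promoters) were present in those of Hoxa2 and Hoxa3. These matches are descriptions of letters and not of bound sites.

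Levels are scaled signals, which are array intensities in arbitrary units scaled to a common level within each experiment, and they are not compared between probe sets or between the experiments. Background was read in 3 ways. The floor, the 25th percentile of all values of the experiment, was 38.7 in the sorted experiment and 78.0 in the experiment with MLL-AF9, and the median of all values was 108 and 258. A probe set was tested when it exceeded that median on at least 3 arrays. As an outside yardstick, 59 probe sets of 32 genes of other tissues (such as lens crystallins, liver albumin and sperm protamines) had a median signal of 47.3 and a 90th percentile of 230 in the sorted experiment, and 72.4 and 445 in the other. Of their values 59.2% lay above the sorted floor and 21.7% above the sorted median, so a value above the floor alone is weak evidence of a transcript.

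Summed signals of marker lists followed the labelled populations. Genes enriched in stem cells (6 probe sets of 4 genes) summed to 921 to 1141 in L-GMP, against 6341 to 7089 in HSC, 1832 to 2508 in CMP, 432 to 608 in GMP and 432 to 1176 in MEP. Most of the L-GMP sum came from 1 of these genes, Meis1, whose signals are given below. On all arrays of the group, 3 of the 6 probe sets were at the floor in L-GMP and 2 in GMP. Of the values of this list, 16.7% lay above the median in L-GMP and 45.8% in GMP. Granulocyte-macrophage genes (7 probe sets of 5 genes) summed to 18901 to 28072 in L-GMP and 31013 to 35107 in GMP. Erythroid and megakaryocyte genes (7 probe sets of 5 genes) summed to 8938 to 12995 in MEP and 1597 to 2234 in L-GMP. Of the 7 B cell probe sets, 4 were at the floor on all arrays of each group. The 3′ to 5′ signal of control transcripts, which is larger for shorter RNA, had a log2 ratio of 2.85 ± 0.08 (SD, 6 arrays) in L-GMP, and group means of the normal populations lay between 2.92 and 3.10. The part of these differences in the HOX results was not tested. In mixed cells, fewer cells of a type and less RNA per cell cannot be told apart.

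Detection differed from gene to gene along the cluster. In the sorted experiment 8 of the 13 probe sets, of 7 genes, were bright enough to be tested, and 5 never exceeded the median. The single Hoxa2 probe set (1419602_at) and both Hoxa4 probe sets (1420226_x_at and 1427354_at), genes of the anterior end of the cluster, stayed at or below the floor on all 22 arrays. Hoxa3, which lies between them, had 1 probe set (1427433_s_at) above the floor on 14 and above the median on 9 of 22 arrays, and another (1452421_at) above the floor on 1. Hoxa13 (1422336_at), the most posterior member, exceeded the floor on 1 of 22 arrays, a MEP array at 55.2, and never the median. Hoxa11 (1420414_at) exceeded the floor on all 22 arrays but the median on only 3, and no value reached the 90th percentile of the genes of other tissues. In the experiment with MLL-AF9, 5 probe sets of 4 genes were tested, and Hoxa2, Hoxa13, Hoxa4 1427354_at and Hoxa3 1427433_s_at were at or below the floor on all 6 arrays. The second Hoxa4 probe set exceeded the floor on 2 of those 6 arrays, with a highest value of 86.8.

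**Figure D1:**
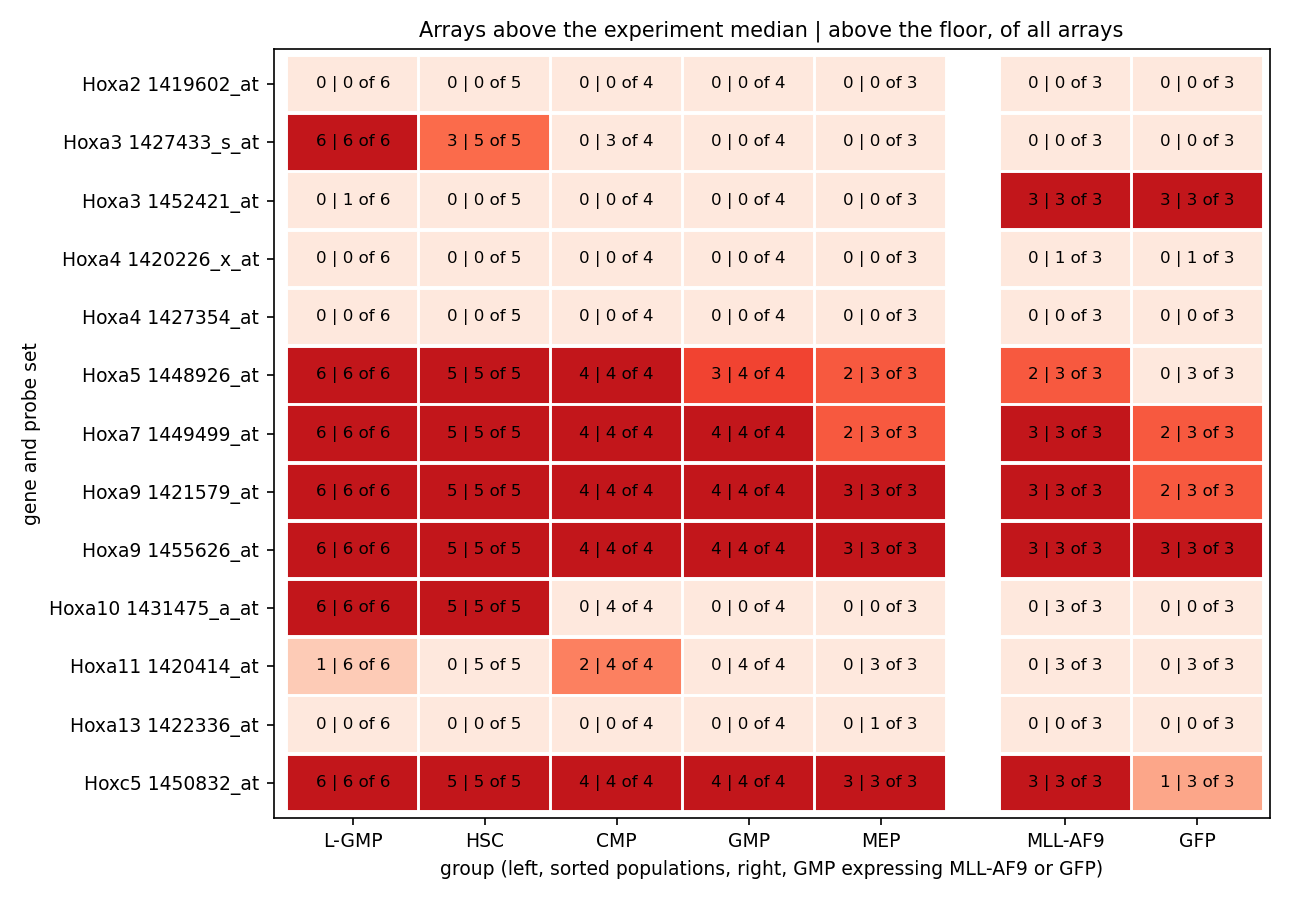
Detection of the 13 probe sets by group, genes from Hoxa2 to Hoxa13 and then Hoxc5. Each cell gives the number of arrays above the experiment median, a bar, the number above the floor and the number of arrays, and darker red means a larger share above the median. Hoxa5, Hoxa7, both Hoxa9 probe sets and Hoxc5 were above the median on all 6 L-GMP and all 5 HSC arrays, whereas Hoxa2, Hoxa4 and Hoxa13 were above it on none.

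L-GMP were set against normal GMP to ask which HOX genes set the leukaemic cells apart from normal cells of like sort markers. Hoxa3, Hoxa5, Hoxa7, Hoxa9, Hoxa10 and Hoxc5 rose in L-GMP, by between 1.73-fold for Hoxc5 and at least 12.9-fold for Hoxa10, and none of the tested probe sets fell. Of the 8 probe sets tested, 7 were called higher (limma, adjusted p under 0.05), where 14.3% of all 12217 probe sets tested were called higher. The median log2 change of the 8 was 1.66, against 0.00 for all probe sets. Hoxa10 and Hoxa3 1427433_s_at exceeded the experiment median only on L-GMP and HSC arrays. They thus entered the 8 through the groups in which they were high, and this count and median include them. Against HSC, 2 of the 8 were called higher, Hoxa10 and Hoxc5, a share near the 23.6% of all probe sets. That count was 1 without HSC replicate 1, 2 or 5 or L-GMP replicate 5 or 6, and 4 without L-GMP replicate 1.

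Hoxa5 encodes a central HOX factor. Its probe set 1448926_at ranged from 865 to 1816 with a median of 1226 over the 6 L-GMP arrays. The HSC arrays held 751, 925, 930, 973 and 838, the CMP arrays 316, 349, 476 and 241, the GMP arrays 127, 192, 190 and 73.4, and the MEP arrays 217, 183 and 68.1. L-GMP and HSC overlapped in 1 L-GMP array, and both lay above every CMP array, which in turn all lay above every GMP and MEP array. Hoxa5 was 9.30-fold higher in L-GMP than in GMP (log2 change 3.22 ± 0.29 SE, adjusted p = 3.19e-08) and rose by 3.18 ± 0.32 over MEP (adjusted p = 4.5e-08). Over CMP it rose by 1.92 ± 0.29 (adjusted p = 1.88e-05). The difference from HSC was 0.52 ± 0.28 with an adjusted p of 0.129, and its 95% interval ran from -0.05 to 1.10.

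Hoxa7, the next member along the cluster, encodes a factor known for cooperation with MLL fusions in mouse progenitors. Its probe set 1449499_at ranged from 245 to 394 with a median of 281 in L-GMP. HSC arrays read 187, 229, 223, 273 and 211, the CMP arrays 181, 327, 204 and 172, the GMP arrays 210, 170, 137 and 141, and the MEP arrays 93.7, 135 and 178. The L-GMP values lay above all GMP and MEP arrays and overlapped those of HSC and CMP. Hoxa7 rose by 0.86 ± 0.19 over GMP (1.82-fold, adjusted p = 0.00161) and by 1.17 ± 0.21 over MEP (adjusted p = 0.000109). It did not pass the test against CMP (0.47 ± 0.19, adjusted p = 0.0633) or HSC (0.41 ± 0.18, adjusted p = 0.0737, 95% interval 0.03 to 0.79 before adjustment). Every L-GMP value exceeded the 90th percentile of genes of other tissues, which 1 of the 5 HSC arrays did.

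Hoxa9 encodes the HOX factor best known for driving myeloid leukaemia together with MEIS1. Probe set 1455626_at ranged from 1964 to 4095 with a median of 3095 in L-GMP. In HSC the arrays gave 2740, 3197, 2945, 2711 and 2913, the CMP arrays 1204, 1427, 1606 and 1219, the GMP arrays 662, 901, 852 and 621, and the MEP arrays 907, 786 and 397. L-GMP spanned the whole HSC range, and even its lowest array, replicate 4, lay above every CMP, GMP and MEP array. Hoxa9 was 4.03-fold higher in L-GMP than in GMP (log2 change 2.01 ± 0.20, adjusted p = 9.6e-08), and rose by 2.20 ± 0.22 over MEP (adjusted p = 3.02e-08) and by 1.16 ± 0.20 over CMP (adjusted p = 6.71e-05). The log2 difference from HSC was 0.06 ± 0.19 (adjusted p = 0.824), with a 95% interval from -0.33 to 0.45, and it turned to -0.03 without L-GMP replicate 6.

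The second Hoxa9 probe set, 1421579_at, had the same order of L-GMP, HSC and CMP, but its mean was higher in MEP (7.77 on the log2 scale) than in GMP (7.61). It ranged from 359 to 702 with a median of 569 in L-GMP. The HSC arrays held 408, 516, 491, 349 and 452, the CMP arrays 224, 240, 245 and 232, the GMP arrays 202, 225, 184 and 175, and the MEP arrays 191, 238 and 229. Against GMP it rose by 1.40 ± 0.16 (adjusted p = 5.45e-07), against MEP by 1.24 ± 0.17 (adjusted p = 3.34e-06) and against CMP by 1.14 ± 0.16 (adjusted p = 4.31e-06). Its difference from HSC was 0.24 ± 0.15 (adjusted p = 0.201, 95% interval -0.07 to 0.54). The CMP, GMP and MEP arrays of this probe set, at 175 to 245, lay on both sides of the 90th percentile of genes of other tissues. All of them were above the floor and the experiment median. Whether background signal narrowed the steps of this probe set between normal progenitors was not tested.

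Hoxa10 encodes a posterior factor of early progenitors. Its probe set 1431475_a_at ranged from 348 to 694 with a median of 481 in L-GMP. HSC arrays read 208, 166, 173, 201 and 202, the CMP arrays 46.8, 48.2, 54.0 and 64.1, the GMP arrays 11.7, 14.6, 10.9 and 3.35, and the MEP arrays 32.3, 29.7 and 11.5. Every L-GMP array lay above every HSC array, and every HSC array above every CMP array. All GMP and MEP arrays were at the floor. Hoxa10 was at least 12.9-fold higher in L-GMP than in GMP (adjusted p = 1.67e-14) and than in MEP (adjusted p = 3.24e-14), both computed against the floor. With the floor at the experiment median the log2 change was 2.22 against GMP, MEP and CMP, and all of these calls were kept. It was 9.45-fold higher than in CMP (log2 change 3.24 ± 0.14, adjusted p = 7.45e-14). It was also 2.64-fold higher than in HSC (1.40 ± 0.13, adjusted p = 1.09e-08), and between these groups no other HoxA probe set was called. The GMP and MEP arrays, all set to the floor, enter the shared fit with an SD of 0 and lower its SE. Over 33 alternatives, among them a limma fit of the 2 groups alone, the adjusted p against HSC ran from 8.81e-10 to 1.14e-05. The L-GMP arrays all exceeded the 90th percentile of genes of other tissues and the HSC arrays all lay under it.

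Hoxa3, an anterior member known for patterning pharyngeal organs, is held by a pair of probe sets that disagreed. Probe set 1427433_s_at ranged from 110 to 282 with a median of 137 in L-GMP. In HSC the arrays gave 101, 126, 100, 129 and 119, the CMP arrays 42.5, 36.8, 46.4 and 50.3, the GMP arrays 18.2, 24.7, 27.4 and 18.0, and the MEP arrays 35.8, 23.5 and 20.3. L-GMP and HSC overlapped and both lay above all other groups, and all GMP and MEP arrays were at the floor. This probe set was at least 3.80-fold higher in L-GMP than in GMP (adjusted p = 2.9e-08) and than in MEP (adjusted p = 3.48e-08), and 3.32-fold higher than in CMP (1.73 ± 0.17, adjusted p = 6.09e-08). With the floor at the experiment median these changes all became 0.45 on the log2 scale, and the call against MEP was lost (adjusted p = 0.0506, the highest of 33 alternatives, which began at 5.97e-11), while those against GMP (adjusted p = 0.0426) and CMP (adjusted p = 0.0373) were kept. Against HSC the change was 0.36 ± 0.16 (adjusted p = 0.0757). The other probe set, 1452421_at, did not exceed 39.9 on any sorted array. The suffix s_at marks a probe set whose probes can match more than 1 transcript, and only 1 value of 1427433_s_at, on an L-GMP array, exceeded the 90th percentile of genes of other tissues.

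Hoxc5, the member outside the HoxA cluster, was measured by probe set 1450832_at. It ranged from 243 to 531 with a median of 337 in L-GMP. The HSC arrays held 190, 189, 255, 276 and 213, the CMP arrays 152, 234, 177 and 182, the GMP arrays 359, 198, 157 and 140, and the MEP arrays 181, 178 and 305. L-GMP lay above all CMP arrays and overlapped HSC, GMP and MEP. Hoxc5 rose by 0.79 ± 0.25 over GMP (adjusted p = 0.0189) and by 0.63 ± 0.24 over HSC (adjusted p = 0.0312), by 0.90 ± 0.25 over CMP (adjusted p = 0.00642) and by 0.68 ± 0.27 over MEP (adjusted p = 0.0485). The call against GMP was lost without GMP replicate 3 (adjusted p = 0.0755) or 4 (adjusted p = 0.0874), and its adjusted p ranged from 0.00151 to 0.102 over 33 alternatives. The call against HSC was lost in 9 of 33 alternatives and that against MEP in 22 of 33.

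Hoxa11, a posterior member known from limb and uterus, did not pass any test. Its values ranged from 69.6 to 144 with a median of 96.1 in L-GMP and from 47.7 to 155 over all sorted arrays. Its change was 0.48 ± 0.22 against GMP (adjusted p = 0.0989) and 0.41 ± 0.20 against HSC (adjusted p = 0.103). All groups overlapped.

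Across the other contrasts of L-GMP, 6 of the 8 probe sets were called higher than in CMP, where 17.8% of all probe sets were, and 7 of 8 higher than in MEP, where 21.7% were. None was called lower against any normal population. Both counts include Hoxa10 and Hoxa3 1427433_s_at, which were tested only through their signal in L-GMP and HSC. The 4 contrasts share the 6 L-GMP arrays and are not independent of each other.

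**Figure D2:**
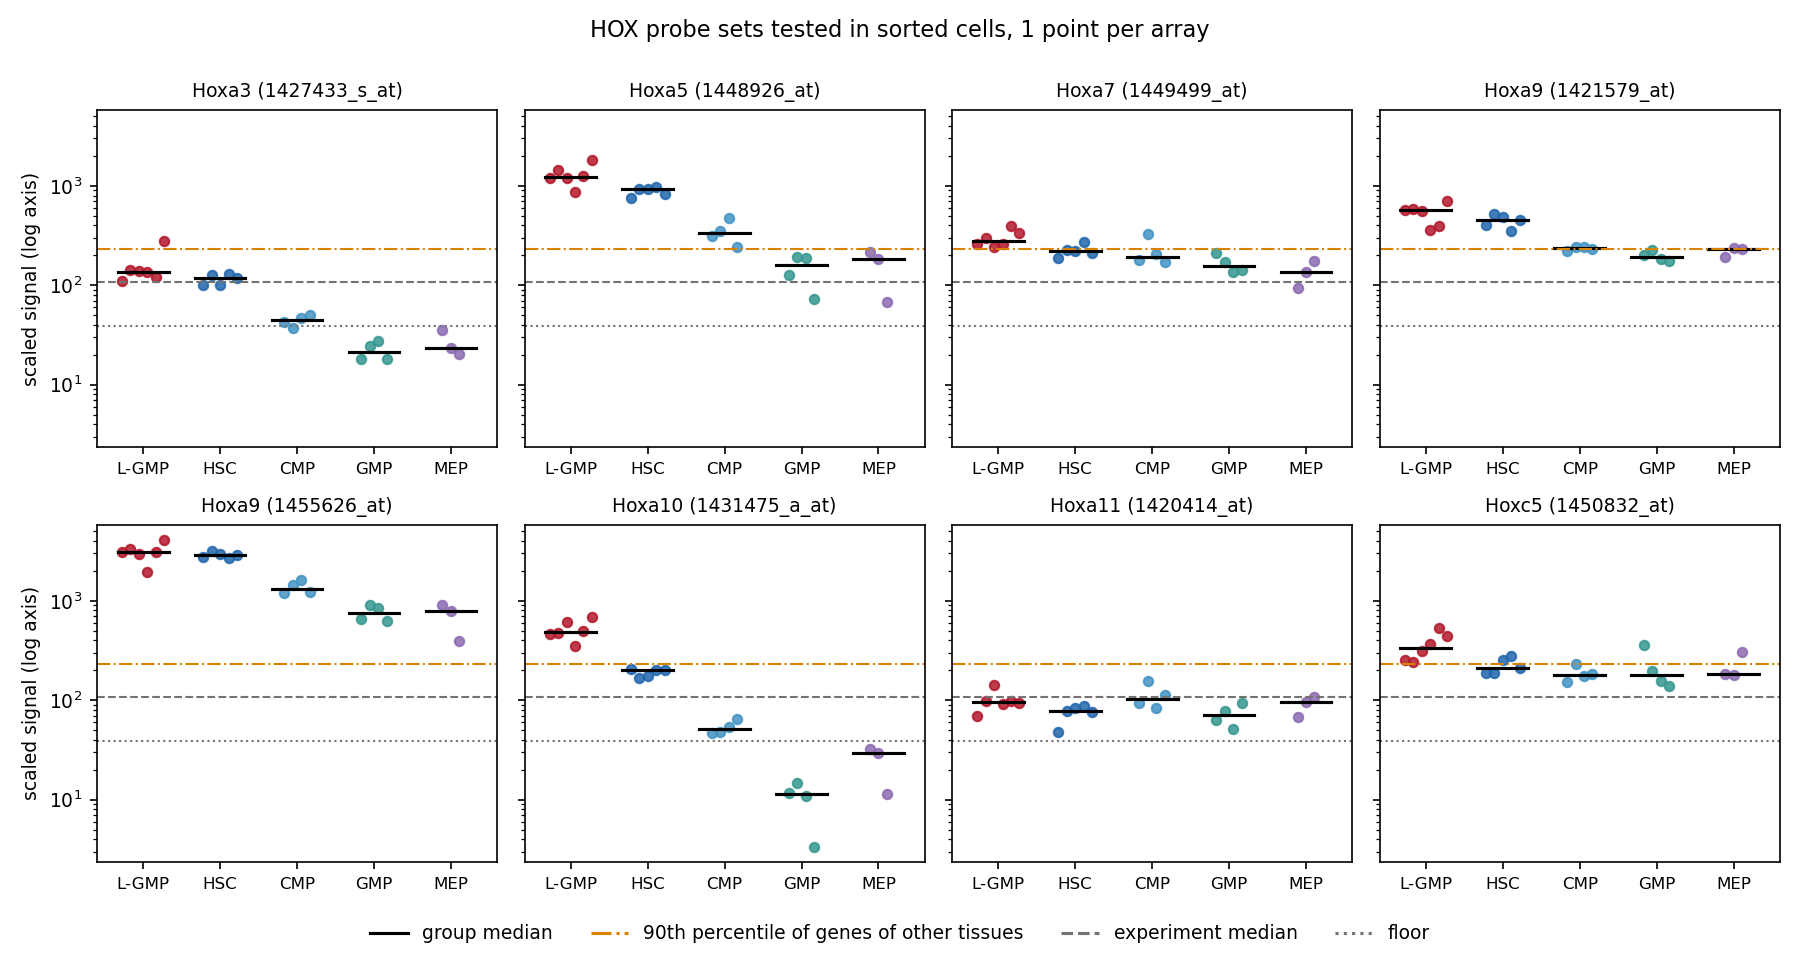
Scaled signal (log axis) of the 8 tested probe sets on every sorted array, L-GMP at the left of each panel and the normal populations to its right. Lines mark group medians, the 90th percentile of genes of other tissues (230), the experiment median (108) and the floor (38.7). Hoxa5, Hoxa9, Hoxa10 and Hoxa3 1427433_s_at are lower in CMP and lower still in GMP than in HSC, and Hoxa10 in L-GMP lies wholly above HSC.

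**Figure D3:**
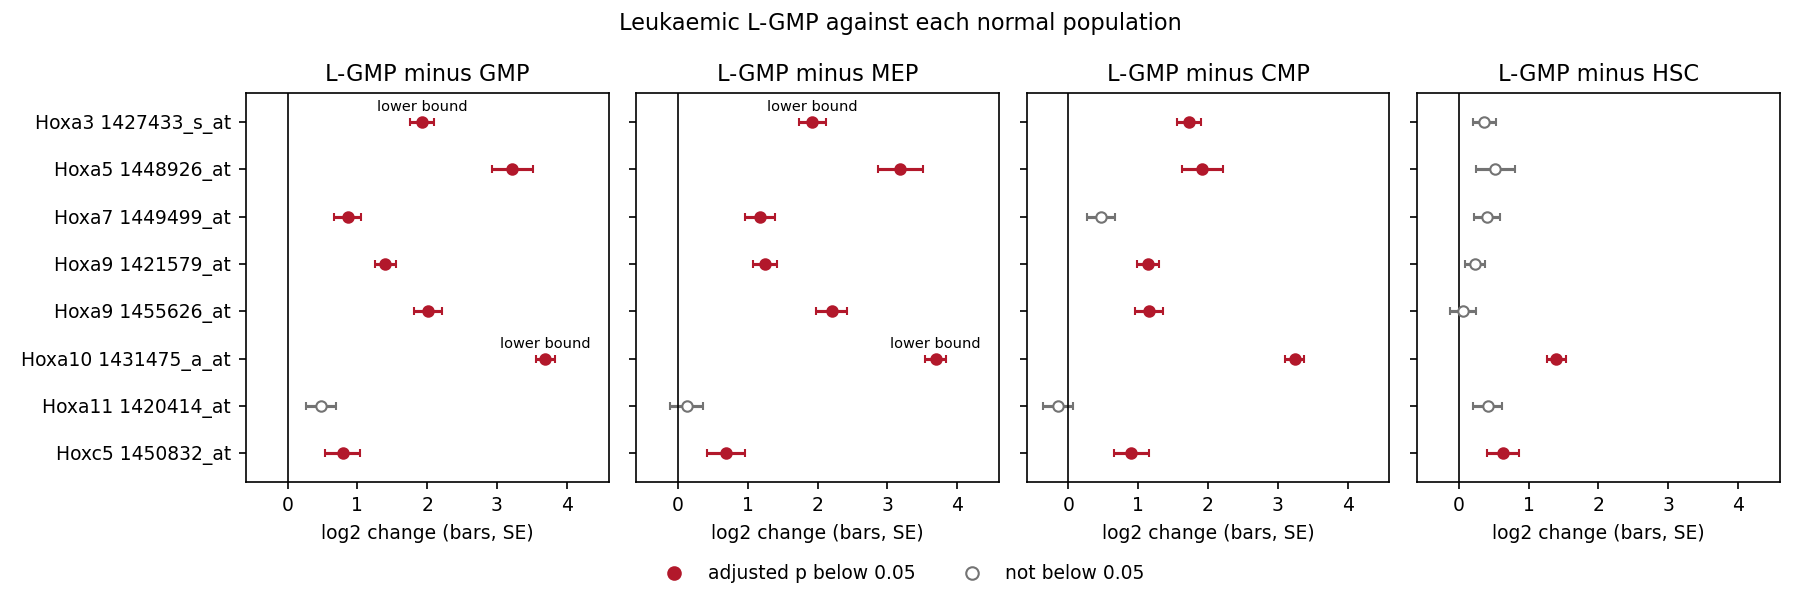
Log2 change of the 8 tested probe sets in L-GMP against GMP, MEP, CMP and HSC, with bars for the standard error of the fit. Filled points had an adjusted p below 0.05 (limma), and changes against a group wholly at the floor are lower bounds. Against HSC only Hoxa10, at 1.40, and Hoxc5, at 0.63, are filled.

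Among normal populations, HSC were compared with each progenitor population. Hoxa3 1427433_s_at, Hoxa5, both Hoxa9 probe sets and Hoxa10 were higher in HSC than in CMP, GMP and MEP. Against CMP 5 of the 8 probe sets were called higher, where 5.58% of all probe sets were. Against GMP 5 of 8 were called, where 18.6% of all were, and against MEP 6 of 8, where 16.9% were. These counts also include Hoxa10 and Hoxa3 1427433_s_at, tested only through their signal in L-GMP and HSC. Hoxa5 was 2.63-fold higher in HSC than in CMP (log2 change 1.39 ± 0.31, adjusted p = 0.00405) and 6.47-fold higher than in GMP (2.69 ± 0.31, adjusted p = 4.53e-07). For Hoxa9 1455626_at the folds were 2.14 against CMP (1.10 ± 0.21, adjusted p = 0.00104) and 3.86 against GMP (1.95 ± 0.21, adjusted p = 1.65e-07). Hoxa10 was 3.58-fold higher in HSC than in CMP (1.84 ± 0.14, adjusted p = 9.41e-09) and at least 4.90-fold higher than in GMP (adjusted p = 7.63e-11). For Hoxa3 1427433_s_at they were 2.58-fold against CMP (1.37 ± 0.18, adjusted p = 2.17e-05) and at least 2.96-fold against GMP (adjusted p = 6.22e-07). The 3 Hoxa3 calls were lost with the floor at the experiment median, and 2 of the 5 HSC values lay under that median. With that floor the Hoxa10 change in HSC was 0.82 against CMP and GMP, still called.

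Hoxa7 behaved otherwise among the normal cells. It differed by 0.06 ± 0.20 between HSC and CMP (adjusted p = 0.902) and by 0.46 ± 0.20 between HSC and GMP (adjusted p = 0.0777). The sole call was against MEP (0.77 ± 0.22, adjusted p = 0.0102), and without MEP replicate 1 its adjusted p was 0.0955, the highest of 33 alternatives, which began at 0.00306. Hoxa11 and Hoxc5 did not pass any test between normal populations. Their group ranges overlapped, with HSC minus CMP changes of -0.57 ± 0.23 for Hoxa11 (adjusted p = 0.11) and 0.27 ± 0.26 for Hoxc5 (adjusted p = 0.572).

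Between CMP and GMP, which the labels separate by the level of CD34, Hoxa5 and Hoxa9 were again lower in the GMP. CMP were called higher for 3 of 8 probe sets, where 8.05% of all probe sets were. Hoxa5 was 2.46-fold higher in CMP than in GMP (log2 change 1.30 ± 0.32, adjusted p = 0.00695). Hoxa9 1455626_at was 1.81-fold higher (0.85 ± 0.22, adjusted p = 0.00841), while the change of 1421579_at was 0.26 ± 0.17 (adjusted p = 0.359). Hoxa10 was called at 0.45 ± 0.15 (adjusted p = 0.0479), with all GMP arrays at the floor, a call lost in 24 of 33 alternatives whose adjusted p ran from 1.78e-06 to 1.

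Between MEP and GMP none of the 8 probe sets was called by limma in either direction, and 0 had an unadjusted p under 0.05. Of all probe sets 11.1% were called higher and 15.2% lower in MEP, so that a count of 0 among 8 lies near the background. The log2 change was 0.03 ± 0.35 for Hoxa5 (adjusted p = 0.962) and -0.19 ± 0.23 for Hoxa9 1455626_at (adjusted p = 0.605), and Hoxa3 and Hoxa10 were at the floor in both. Relative to CMP, MEP were called higher for none and lower for 3 of the 8, where 5.62% of all probe sets were higher and 10.3% lower. The calls were Hoxa5 (-1.27 ± 0.35, adjusted p = 0.0145), Hoxa7 (-0.71 ± 0.23, adjusted p = 0.0405) and Hoxa9 1455626_at (-1.04 ± 0.23, adjusted p = 0.00299). The lowest MEP value of Hoxa5 and of Hoxa9 came from replicate 3, and without it the Hoxa5 call was lost (adjusted p = 0.163). The Hoxa5 call was also lost without CMP replicate 3 (adjusted p = 0.0558), and over all 33 alternatives its adjusted p ran from 0.0053 to 0.163. The Hoxa7 call was lost in 8 of 33 alternatives.

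The order of group means on the log2 scale summarises these levels. For Hoxa9 1455626_at it was L-GMP at 11.56 ± 0.35, HSC at 11.50 ± 0.10, CMP at 10.40 ± 0.20, GMP at 9.55 ± 0.26 and MEP at 9.36 ± 0.64 (SD). Of these neighbours, HSC and CMP, and CMP and GMP, differed beyond their spread, and the others did not. The order was the same for Hoxa10 down to CMP, and there L-GMP (8.97 ± 0.35) and HSC (7.56 ± 0.15) also differed. For Hoxa5 MEP (7.12 ± 0.90) and GMP (7.09 ± 0.65) changed places without a detectable difference.

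Whether Hoxa10 differed from Hoxa9 in its change was tested within arrays, where any effect shared by a whole array cancels. The log2 signal of Hoxa10 minus that of Hoxa9 1455626_at averaged -2.59 ± 0.20 in L-GMP and -3.94 ± 0.23 in HSC (SD, 6 and 5 arrays). The difference of 1.34 had an exact p of 0.00216 (two-sided exact permutation test over 462 arrangements, 0.00432 after Benjamini-Hochberg adjustment over 4 tests), which is the smallest value these groups allow. Hoxa5 minus Hoxa9 averaged -1.26 ± 0.08 in L-GMP and -1.72 ± 0.15 in HSC, a difference of 0.46 with the same exact p of 0.00216 (adjusted 0.00432). For neither gene did the L-GMP and HSC arrays overlap in this measure. With Hoxa9 1421579_at as the reference instead, the Hoxa5 arrays of L-GMP and HSC did overlap. On HSC replicate 4, Hoxa5 and that probe set stood at 9.93 and 8.45 (log2). The gap was narrower on L-GMP replicate 1, at 10.23 and 9.18. No test was run with that reference. Hoxa7 minus Hoxa9 differed by 0.35 (exact p = 0.0844, adjusted 0.113), and the other Hoxa9 probe set by 0.18 (exact p = 0.156, adjusted 0.156), both with overlap. These 4 tests were added after the values had been seen. Hoxa10 had by then been called higher in L-GMP than in HSC on these same arrays, without overlap. The exact p-values of the permutation tests therefore describe these arrays and are not separate support.

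**Figure D4:**
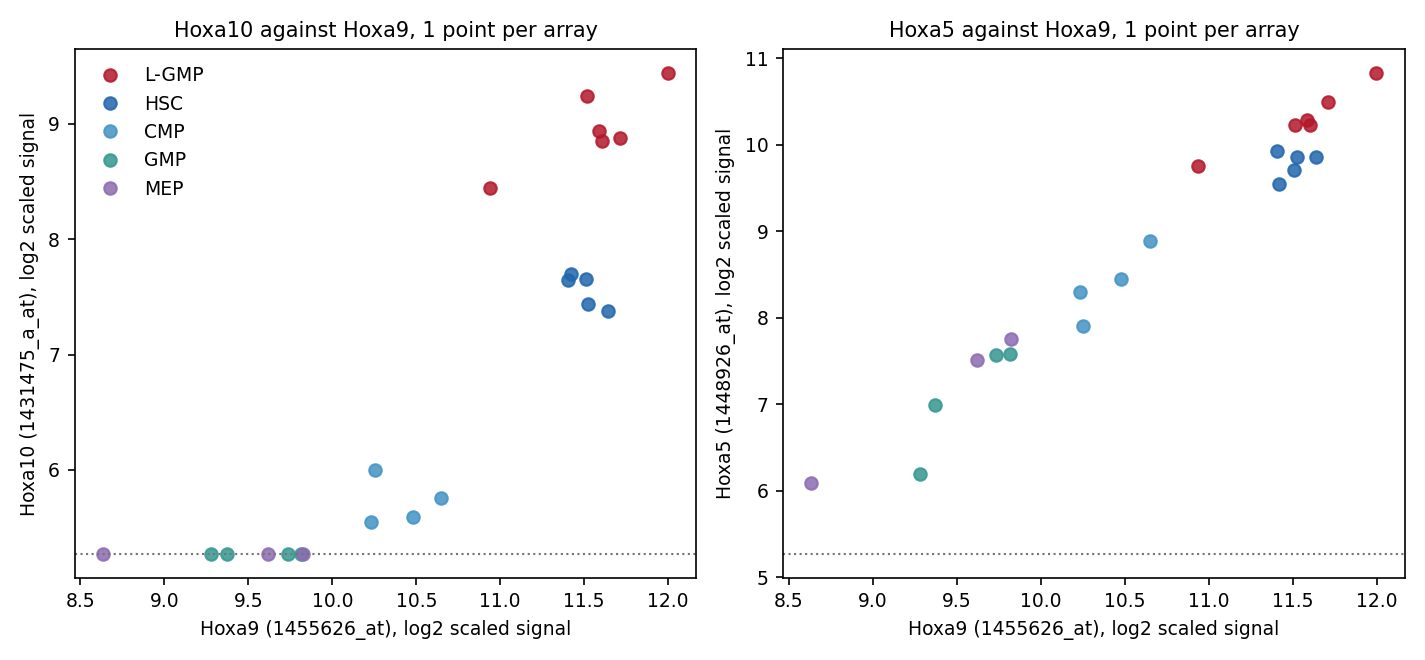
Log2 scaled signal of Hoxa10 (left) and Hoxa5 (right) against Hoxa9 1455626_at, 1 point per sorted array, with the floor as a dotted line. At like Hoxa9 signal the L-GMP arrays lie above the HSC arrays, by 1.34 on average for Hoxa10 and 0.46 for Hoxa5, and the GMP and MEP arrays of Hoxa10 lie on the floor.

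The probe sets whose log2 signal followed a member most closely over the 22 sorted arrays were listed by Pearson r, as a description only, since the arrays share groups and scaling. Hoxa5 and Hoxa9 1455626_at were each other's closest of 12216 and 12215 compared (r = 0.983). Next for Hoxa9 came Stk10, a lymphocyte-oriented serine-threonine kinase (r = 0.973), Col4a1, a basement membrane collagen (r = 0.948), Pdlim2 (r = 0.931) and Ppp2r5c (r = 0.929). Next for Hoxa5 were Ppp2r5c, a regulatory subunit of phosphatase 2A (r = 0.956), Stk10 (r = 0.951), Mylk (r = 0.941) and Tcf4 (r = 0.933). Hoxa10 followed Itgb5, an integrin subunit measured by a pair of probe sets (r = 0.977 and 0.961), Mylk, the myosin light chain kinase (r = 0.966), Hoxa3 1427433_s_at (r = 0.958) and Dbndd2 (r = 0.946). The closest to Hoxa7 were Arhgap9 (r = 0.827) and Apoc4 (r = 0.815), then Tapbp, Mrtfa and Itgb5 between 0.778 and 0.785.

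In the experiment with MLL-AF9, the question is which HOX genes differ in GMP that express the fusion. Signals of Hoxa9, Hoxa7, Hoxa5, Hoxa10 and Hoxc5 were higher on all MLL-AF9 arrays than on all GFP arrays. Hoxa11 separated the other way. The share of all probe sets that separate like this was not counted, so the separation only describes these arrays. None of the 5 tested probe sets passed the test over all probe sets. The fit called 0% of 10526 probe sets higher and 1 lower, while 392 were higher and 616 lower at an unadjusted p under 0.05, among them 4 of the 5 HOX probe sets, all higher. Arrays of the same replicate number varied together in all 3 pairs (r from 0.419 to 0.642). The labels do not say that the numbers pair arrays, and the block was chosen from these same arrays. GFP replicate 3 with MLL-AF9 replicate 2 had an r of 0.516, above same-number pairs 2 (0.419) and 3 (0.443). These correlations thus do not settle how replicates 2 and 3 match. The calls with a block on the replicate number hold only if that number does pair arrays. With the number as a block, 3 of the 5 members were called higher, where 0.181% of all probe sets were, 19 higher and 124 lower in total. The median log2 change of the 5 was 1.26, against 0.02 for all probe sets. Hoxa7, Hoxa9 1421579_at and Hoxc5 exceeded the experiment median on 2, 2 and 1 of the 3 GFP arrays, and on all MLL-AF9 arrays. They thus reached the 3 arrays needed for testing only through MLL-AF9, and this count and median include them. Hoxa5, Hoxa10 and Hoxa11 were not among the 5.

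Hoxa9 1455626_at had 3392, 4481 and 4124 on the MLL-AF9 arrays, against 712, 1875 and 1837 on the GFP arrays. The groups did not overlap, and replicate 1 was lowest in both. The log2 change was 1.56 ± 0.38 (2.95-fold, adjusted p = 0.422), and with the block 1.56 ± 0.23 (adjusted p = 0.0433). Probe set 1421579_at had 424, 627 and 605 in MLL-AF9 and 120, 357 and 271 in GFP, again without overlap. It changed by 1.26 ± 0.40 (adjusted p = 0.478), which became 1.26 ± 0.20 under the block (adjusted p = 0.053).

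Hoxa7 had 723, 879 and 612 in MLL-AF9, against 244, 272 and 316 in GFP. The groups lay well apart, with a log2 change of 1.40 ± 0.17 (2.65-fold, adjusted p = 0.211, and 0.024 with the block). Hoxc5 had 583, 432 and 417 in MLL-AF9 and 261, 236 and 243 in GFP, without overlap, and differed 1.91-fold (log2 0.94 ± 0.16) at an adjusted p of 0.291, or 0.0315 in the blocked fit. Of the MLL-AF9 values of Hoxc5, 1 of 3 exceeded the 90th percentile of genes of other tissues. The blocked calls rested on few arrays: without pair 1, 1 member stayed called, without pair 2 none, and without pair 3 there were 4, with Hoxa9 1421579_at added (adjusted p = 0.0476).

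Hoxa5 and Hoxa10 were too dim to be tested here. Hoxa5 had 233, 456 and 407 in MLL-AF9, against 100.4, 222 and 180.2 in GFP, above the floor throughout and above the median on 2 arrays, both MLL-AF9. Hoxa10 had 92.8, 173 and 112 in MLL-AF9, just above the floor, and 25.2, 29.9 and 30.3 in GFP, all under it. Neither gene overlapped between the groups. In a fit with no filter their changes were 1.14 (adjusted p = 0.706) for Hoxa5 and 0.64 (adjusted p = 0.723, GFP at the floor) for Hoxa10.

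Hoxa3 and Hoxa11 did not follow the others. Hoxa3 1452421_at, dark in the sorted experiment, had 591, 393 and 610 in MLL-AF9 and 641, 488 and 551 in GFP, above the median on all 6 arrays. The groups overlapped, with a change of -0.09 ± 0.20 (adjusted p = 0.916). Hoxa3 1427433_s_at, the probe set with signal in L-GMP and HSC, had 41.3, 21.2 and 43.9 in MLL-AF9 and 20.6, 33.2 and 54.2 in GFP, all under the floor. Hoxa11 had 135, 131 and 124 in MLL-AF9 and 157, 139 and 163 in GFP, all under the median. Its groups did not overlap either, but MLL-AF9 was the lower. In the limma fit with no filter its change was -0.24 (adjusted p = 0.684).

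Marker signal also differed between these groups. The 6 probe sets of 4 stem cell enriched genes summed to 1347 to 2225 on the MLL-AF9 arrays and 596 to 868 on the GFP arrays, without overlap. Meis1, given below, made up a large part of the MLL-AF9 sum. The list as a whole was mixed. Of its values, 38.9% lay above the median with MLL-AF9 and 11.1% with GFP, but 61.1% and 66.7% above the floor. On all arrays of the group, 2 probe sets were at the floor with MLL-AF9 and 1 with GFP. The 5 T cell probe sets summed to 776 to 836 with MLL-AF9 and 686 to 753 with GFP. The 6 probe sets of 4 macrophage genes summed to 6226 to 12603 on the MLL-AF9 arrays and 12272 to 23472 on the GFP arrays, which overlapped. The part of these markers in the HOX differences was not tested. The 3′ to 5′ log2 ratio averaged 1.47 ± 0.24 in MLL-AF9 and 1.51 ± 0.32 in GFP (SD, 3 arrays each).

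**Figure D5:**
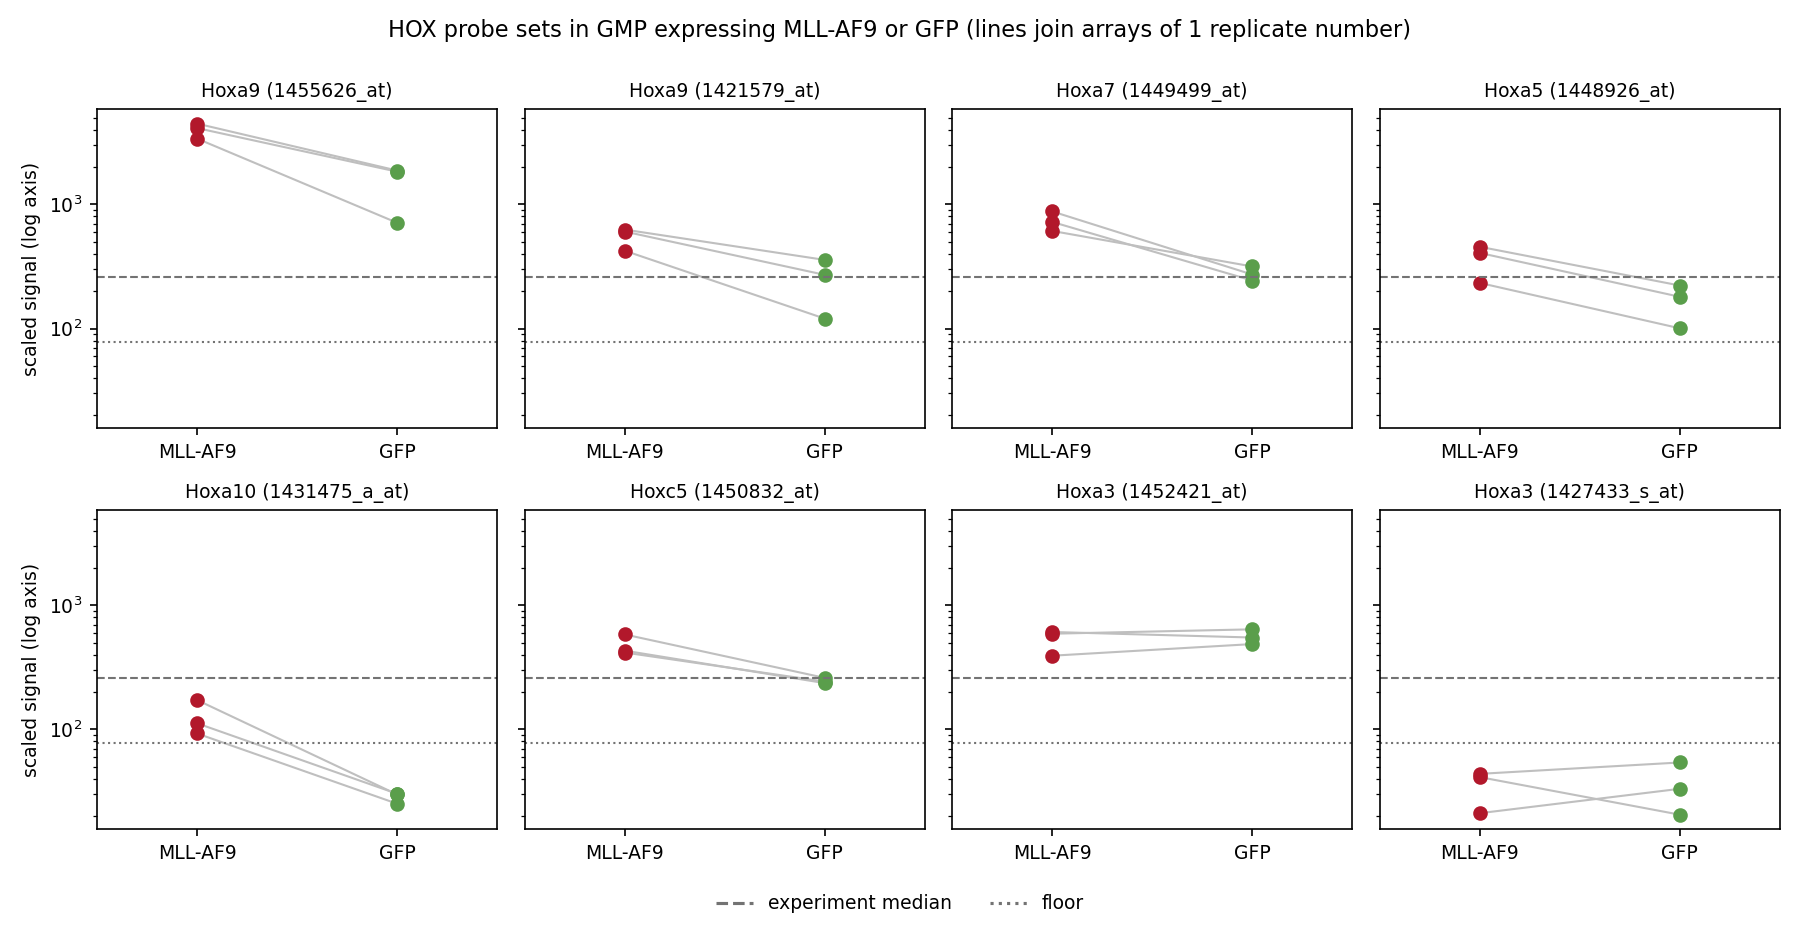
Scaled signal (log axis) of 8 HOX probe sets in GMP expressing MLL-AF9 (left of each panel) and GFP (right), with lines joining arrays of the same replicate number, a dashed line at the experiment median (258) and a dotted line at the floor (78.0). In the panels of Hoxa9, Hoxa7, Hoxa5, Hoxa10 and Hoxc5 all MLL-AF9 points lie above all GFP points, and in both Hoxa3 panels they overlap.

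Of 29 other Hox genes listed for comparison, 21 were on the array with 24 probe sets, and 7 probe sets of 6 genes were bright enough to be tested in the sorted experiment. Hoxb5, a central HoxB gene, was the only one called higher in L-GMP than in GMP (0.47 ± 0.13, adjusted p = 0.0095) and than in HSC (0.44 ± 0.13, adjusted p = 0.00602). Its signals ran from 393 to 576 in L-GMP and from 268 to 464 in GMP, and so overlapped. Of all probe sets 14.3% were called higher in L-GMP than in GMP and 23.6% than in HSC, so 1 call among 7 does not exceed the background. The median log2 change of the 7 in L-GMP against GMP was 0.04. None of the 7 was called in any contrast between normal populations. With MLL-AF9, the tested pair of Hoxb5 and Hoxb4 1460379_at changed by -0.03 ± 0.18 and -0.22 ± 0.15 (adjusted p = 0.975 and 0.653).

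Partners of HOX proteins were given from a list of 9 genes, of which 6 probe sets of 4 genes were tested. In L-GMP against GMP 3 probe sets were called higher and none lower, where 14.3% of all probe sets were higher and 18.5% lower. Pbx3, a PBX homeodomain partner, ran from 382 to 596 in L-GMP and from 22.6 to 42.0 in GMP, with 3 of 4 GMP arrays at the floor (log2 change 3.74 ± 0.14, adjusted p = 2.2e-14). It was also higher than in HSC (35.5 to 71.5, change 3.35 ± 0.14, adjusted p = 1.2e-14). Pbx3 exceeded the experiment median on L-GMP arrays alone. It thus entered the 6 through the group in which it was high, and the count of 3 includes it. Meis1, the MEIS partner, ran from 757 to 1014 in L-GMP and from 151 to 209 in GMP (2.24 ± 0.19, adjusted p = 7.7e-09). In HSC it ran from 1509 to 1627, so that it was lower in L-GMP than in HSC (-0.87 ± 0.18, adjusted p = 0.000306). Pbx2 1418894_s_at, of another PBX partner, ran from 97.7 to 164 in L-GMP and from 43.8 to 77.3 in GMP (1.11 ± 0.25, adjusted p = 0.00143), while its other 2 tested probe sets were not called. With MLL-AF9, Meis1 ran from 753 to 1291, against 90.1 to 185 with GFP (2.82 ± 0.31, adjusted p = 0.183, and 0.00467 with the block).

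Genes listed as regulators of HoxA chromatin were spread to both sides. Of 35 tested probe sets of 21 genes, 3 were higher and 5 lower in L-GMP than in GMP. Of all probe sets 14.3% were called higher and 18.5% lower, so neither count exceeds the background. The higher ones were Cbx8 1419198_at, of a Polycomb subunit (0.83 ± 0.15, adjusted p = 0.000205), Mllt10 (0.42 ± 0.11, adjusted p = 0.00483) and Aff1 (0.40 ± 0.11, adjusted p = 0.00867), the last 2 being partners of MLL in other fusions. The other tested Cbx8 probe set, 1419199_at, was not called, with log2 means of 6.78 in L-GMP and 6.94 in GMP. The lower ones were a pair of probe sets each for Psip1, which tethers MLL complexes to chromatin (-0.99 ± 0.14 and -1.02 ± 0.13, adjusted p = 1.78e-05 and 2.94e-06), and for Kmt2a (-0.60 ± 0.19 and -0.68 ± 0.23, adjusted p = 0.0159 and 0.0293), and 1 for Ash2l (-0.35 ± 0.12, adjusted p = 0.0303). With MLL-AF9 none of 27 tested probe sets was called, with or without the block.

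Genes that lie beside the HoxA cluster on chromosome 6 did not move as a block either. Of 13 tested probe sets of 7 genes, 6 were higher and 2 lower in L-GMP than in GMP, where 14.3% of all probe sets were higher and 18.5% lower. Skap2, one of these neighbours, rose by 0.82 ± 0.13 (adjusted p = 4.54e-05), and Tax1bp1 by 0.81 ± 0.15 and 0.73 ± 0.12 in 2 of its 3 tested probe sets (adjusted p = 0.000197 and 6.32e-05). The other 3 higher probe sets were of Hnrnpa2b1, an RNA-binding protein, with changes of 0.41 ± 0.12, 0.41 ± 0.14 and 0.27 ± 0.09 (adjusted p = 0.0136, 0.0232 and 0.022), and another probe set of it was not called. The lower ones were Snx10 (log2 change -1.20 ± 0.22, adjusted p = 0.000235) and Hibadh 1435967_s_at (-0.26 ± 0.08, adjusted p = 0.0113). With MLL-AF9 none of 10 tested probe sets was called.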

How the data were processed

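The authors deposited 1 linear intensity per probe set and array. Per the submitters' processing notes the tool was MAS5 (no version given). Between 187 and 413 values of an array were at or below 0, whose origin is not given in the sources used here. Groups and replicate numbers came from the sample titles, and arrays were placed in the 2 experiments by those titles and by their medians (247 to 267 and 90.8 to 116).

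Within each experiment, arrays were scaled to a common mean after trimming 2% at each end (factors 0.923 to 1.12), values under the 25th percentile were set to it, and log2 was taken. A change in total RNA per cell cannot be seen after scaling. Probe sets above the experiment median on at least 3 arrays and naming 1 gene were tested (10526 and 12217). Of 22690 probe sets, 64 controls, 691 naming several genes and 1555 naming none were left out. limma 3.58.1 in R 4.3.3 (lmFit, eBayes, two-sided, Benjamini-Hochberg over all probe sets tested, called under 0.05) was fitted to the 6 arrays and, in 1 fit with 10 contrasts, to the 22. Groups wholly at the floor enter the spread of a fit with an SD of 0. For Hoxa10 and Hoxa3 1427433_s_at these were GMP and MEP, which lowers the SE of their contrasts. The procedure was tested on simulated data.

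Same-numbered arrays deviated together in 3 of 3 pairs with MLL-AF9 or GFP (r from 0.419 to 0.642 over probe sets, which are not independent), where 2 of 6 other pairs also exceeded 0.1, and in 20 of 37 sorted pairs. GFP replicate 3 with MLL-AF9 replicate 2 had an r of 0.516, above same-number pairs 2 (0.419) and 3 (0.443). The block on replicate number, which assumes that the numbers pair arrays, is given beside the unblocked fit of the first experiment. Alternatives changed the scaling, floor, filter, probe sets per gene, prior variance, 3′ to 5′ covariate, block, arrays and groups fitted. Members and lists were chosen with earlier results of these data known. Full values are given for Hoxa5, Hoxa7, Hoxa9, Hoxa10 and every other member called in a contrast. The change of a listed gene is given where it was called in L-GMP against GMP.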

Additional observations from a re-analysis of the deposited data

Results flagged for a closer look

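A test for a value far from the rest of its group (Dixon's ratio of gap to range) was run on 30 sets of arrays of the tested HOX probe sets in L-GMP, HSC, CMP and GMP, and chance alone marks about 1 in 20. It marked 2. Hoxa3 1427433_s_at stood at 282 on L-GMP replicate 6, against 110 to 141 on the other L-GMP arrays (ratio 0.738, critical value 0.625). Without that array the L-GMP minus GMP change of this probe set was 1.74, against 1.93 with it, and it stayed called. Hoxa11 stood at 47.7 on HSC replicate 1, against 76.7 to 86.8 on the other HSC arrays (ratio 0.793, critical value 0.71), in a gene that passed no test.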

How the results depend on the processing

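Of 90 results for single HOX probe sets, 61 were those called or belonging to MLL-AF9 against GFP or to L-GMP against GMP or HSC. Of these 47 were called, 32 of these kept their direction and call in every alternative run, 15 lost the call in at least 1, and 10 of the 14 not called gained one in at least 1. Of the other 29, none of them called, 7 gained a call and 11 changed sign in at least 1 alternative. The calls of Hoxa5, Hoxa7, both Hoxa9 probe sets, Hoxa10 and Hoxa3 1427433_s_at in L-GMP against GMP were kept in all. For MLL-AF9 against GFP, the count of probe sets called was 1, and it was 2 with quantile normalization, no filter, 1 probe set per gene or a trend in the prior variance, 0 with the floor at the 50th percentile, and 0 to 1 when single arrays were left out. With the replicate block it was 143, of which 3 were HOX members, and without pairs 1, 2 and 3 it was 94, 20 and 227, with 1, 0 and 4 members. Members called in L-GMP against HSC were 2, then 1 with no filter or with the replicate block, 4 with the 2 groups fitted alone, and 1 to 4 when single arrays were left out. Members called in MEP against GMP were 1 with the floor at the 10th percentile, and in MEP against CMP 5 with that floor, 0 with the 2 groups alone and 1 to 4 with single arrays left out. Probe sets called in HSC against CMP ranged from 936, without CMP replicate 4, to 1789. Signs turned for differences near 0. Hoxa9 1455626_at in L-GMP against HSC was -0.0526 with the 3′ to 5′ ratio as a covariate, -0.0282 with the replicate block, which also takes up L-GMP replicate 6, and -0.0282 to 0.18 with single arrays left out. Hoxa3 1452421_at with MLL-AF9 ranged from -0.21 to 0.11 with single arrays left out, and was 0.0153 with the replicate block without pair 2. The causes were not tested. The number of arrays, and signal near background for Hoxa3, Hoxa10, Hoxa11 and Hoxc5, limit these results.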
